A study of Mus musculus with 27 samples.

Results

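The 41 genes described here encode proteins that copy chromosomal DNA. By role, 10 license origins, 6 activate the replicative helicase, 7 are subunits of DNA polymerases and primase, 6 form the sliding clamp and its loader, 3 bind single-stranded DNA, 2 mature Okazaki fragments, 4 supply deoxynucleotides, and 3 assemble chromatin or bind hemimethylated DNA behind the fork. They were chosen by gene symbol, and each symbol matched 1 Ensembl gene of the 45195 in the deposited table of raw counts. All 41 passed the filter on low counts in every fit.

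The study followed adult neurogenesis of the mouse through 4 stages. Those of the subventricular zone (SVZ) are the NSC stage, neural stem cells, and the ENB stage, early neuroblasts, and those of the olfactory bulb (OB) are the LNB stage, late neuroblasts, and the Neuron stage. All groups were male mice aged 8 to 12 weeks on a C57BL/6 background that received tamoxifen at 200 mg per kg in 2 to 3 doses. They came from the TiCRY line (Tlx-CreER-Rpl22.HA-eYFP) or the DiCRY line (Dcx-CreER-Rpl22.HA-eYFP), in which the Tlx or Dcx promoter drives an inducible Cre that switches on an eYFP reporter and an HA tag on the ribosomal protein Rpl22. Total mRNA (12 libraries, 3 for each stage) came from 200 to 500 sorted eYFP-positive cells of 1 to 2 mice. Ribosome-bound mRNA (9 libraries, 3 for LNB and 2 for each other stage) came from anti-HA immunoprecipitation of unsorted tissue, and the same procedure on tissue without HA gave 3 control libraries for the SVZ and 3 for the OB. Library names carry Ticry for NSC, Dicry for ENB and LNB and Dxc4wpi for neurons, so a stage is the set of cells a promoter labels in a tissue and not a cell type isolated by several markers. Control names mark tissue negative for the tag, either a minus sign on a line's name or Cre-, and the labels do not state which alleles those animals carry. The labels give no interval between tamoxifen and collection outside short tags in the library names. Of the Neuron ribosome-bound libraries, titles and descriptions say ribosome-bound whereas another label field reads total mRNA and the sorting protocol is attached, so their origin is less certain than that of the other groups. Tags in the library names point to separate animals for the replicates of a group, and 2 bound and 2 total ENB libraries share animals with LNB libraries. The p-values measure only the spread between these libraries.

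Replication of a genome begins before S phase, when the origin recognition complex together with Cdc6 and Cdt1 loads the ring-shaped MCM helicase onto DNA. Cdc45 and the GINS complex then turn the loaded ring into a moving helicase, primase and DNA polymerase alpha lay down primers, and polymerases delta and epsilon extend them while held on the template by the PCNA clamp. Most of these genes are transcribed in proliferating cells under the control of E2F factors, and quiescent or postmitotic cells keep little of their mRNA. In the adult SVZ, activated stem cells, transit-amplifying progenitors and part of the neuroblasts divide, whereas neurons of the bulb are postmitotic.

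The letters of the promoters are given first, from RefSeq on GRCm38.p6, and their part in the changes described below was not tested. The table of promoters, each 250 bases before to 50 after a gene's start, held 40 promoters for 34 of the 41 genes. It had no entry for Mcm4, Gins1, Gins2, Gins4, Prim2, Pole or Rfc2. The E2F-type letters TTTCGCGC, TTTGGCGC, TTTCCCGC or TTTGGCGG stood on either strand of 16 of the 40 promoters (40.0%), against 777 of all 32851 promoters of the table (2.37%). The CCAAT box, read on both strands by its letters CCAAT, stood in 25 of the 40 (62.5%), against 37.4% of all promoters. Of the 10 licensing genes, 7 had E2F-type letters, and these stretches are shown because the same letters recur across genes that load 1 complex. Capitals mark the E2F-type letters, and each stretch is written 5′ to 3′ along the gene's own strand.
Orc1: ttagtgGCGCGAAAagtttt
Cdc6: tggagaGCGGGAAAtcgcct
Cdt1: taccttTTTGGCGCcatggc
Mcm3: tccgtgGCGGGAAAacttgg
Mcm3: ggaagtTTTGGCGCcaag
Mcm5: aagaacTTTCGCGCcaaaac
Mcm5: actttcGCGCCAAAacgtcc
Mcm6: tatgctTTTGGCGCgaaaag
Mcm6: cttttgGCGCGAAAagtgcg
Mcm6: gacgggTTTGGCGCgaagta
Mcm7: cgaaccGCGGGAAAcagggt
Mcm7: acgacgTTTCGCGCcaattt
In Mcm5 and in the first pair shown for Mcm6, the matches overlap and lie on opposite strands of the same stretch. The other genes with such letters were Gins3, Pola1, Pola2, Pold1, Rfc3, Rpa1, Lig1, Uhrf1 and Chaf1a. A match describes the letters of this window, and binding of a factor was not measured here.

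Whole promoters are shown for genes at the extremes of the change from ENB to LNB described below, namely Uhrf1 and Mcm10 with the largest log2 differences and Orc6 with nearly the smallest, where the table holds them. Capitals mark E2F-type letters and CCAAT on either strand. Uhrf1 has 2 promoters on the plus strand, at chr17:56303087-56303386 and chr17:56304063-56304362, and only the second holds E2F-type letters. In the first, the last capitals are 2 overlapping CCAAT matches on opposite strands. Mcm10 (minus strand, chr2:5012742-5013041) has CCAAT at 3 places, and Orc6 (plus strand, chr8:85299382-85299681) has it once, on the reverse strand.
Uhrf1 first promoter: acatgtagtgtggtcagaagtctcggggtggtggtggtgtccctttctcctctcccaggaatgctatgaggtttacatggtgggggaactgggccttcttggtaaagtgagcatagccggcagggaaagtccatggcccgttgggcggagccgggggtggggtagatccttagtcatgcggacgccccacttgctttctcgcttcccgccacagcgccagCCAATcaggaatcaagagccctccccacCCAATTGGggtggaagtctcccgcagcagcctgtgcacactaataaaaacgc
Uhrf1 second promoter: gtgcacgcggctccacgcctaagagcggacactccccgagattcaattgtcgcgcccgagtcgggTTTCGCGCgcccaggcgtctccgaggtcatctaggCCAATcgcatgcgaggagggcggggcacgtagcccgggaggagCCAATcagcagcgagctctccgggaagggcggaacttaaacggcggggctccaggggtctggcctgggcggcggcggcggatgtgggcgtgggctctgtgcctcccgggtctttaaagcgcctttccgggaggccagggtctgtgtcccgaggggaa
Mcm10: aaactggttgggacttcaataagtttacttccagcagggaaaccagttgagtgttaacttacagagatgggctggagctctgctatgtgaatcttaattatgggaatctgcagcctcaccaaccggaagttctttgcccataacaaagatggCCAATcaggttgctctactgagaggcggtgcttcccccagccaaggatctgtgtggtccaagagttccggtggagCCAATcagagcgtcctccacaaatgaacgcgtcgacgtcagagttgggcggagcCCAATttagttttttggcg
Orc6: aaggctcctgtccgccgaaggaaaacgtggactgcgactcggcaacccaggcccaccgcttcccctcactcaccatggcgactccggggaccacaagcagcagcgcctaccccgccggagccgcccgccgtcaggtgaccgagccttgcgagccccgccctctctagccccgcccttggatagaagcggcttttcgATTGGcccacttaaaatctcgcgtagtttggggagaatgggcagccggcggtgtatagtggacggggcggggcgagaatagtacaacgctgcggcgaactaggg
The 16 genes with E2F-type letters had a median log2 change from ENB to LNB of -1.85 (from -3.93 to -0.91), and the 18 with a promoter but no such letters had a median of -1.41 (from -3.64 to -0.39). These ranges overlap over most of their length. Mcm10, with no whole match in its window, changed nearly as much as Uhrf1. Its window ends in TTTGGCG, however, and a match cut off by the window's end was not counted.

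Libraries of total mRNA held between 5225929 and 15994635 counts, immunoprecipitates with the tag between 6325479 and 13316334, and controls between 5960357 and 9120659. Levels below are CPM, counts scaled to library size with TMM factors, unless TPM is named, and the values of a group are listed in the order of its replicates. Changes are log2 fold changes ± standard error from edgeR's quasi-likelihood test, with p-values adjusted by the Benjamini-Hochberg method over all genes tested and a threshold of 0.05. The labels of the sorted cells were checked against markers. Summed CPM of 10 stem cell and astrocyte genes was 7028 to 8566 in NSC against 717 to 1156 in ENB, of 10 neuroblast genes 13373 to 15088 in ENB against 3495 to 4281 in NSC, and of 9 mature neuron genes 7414 to 11683 in neurons against 765 to 1426 in LNB. The LNB libraries stood apart from each other, with stem cell and astrocyte genes summing to 10339.6 and 15351 CPM in replicates 1 and 3 and to 1528 CPM in replicate 2. For these genes, LNB replicates 1 and 3 lay above every NSC library, so this list does not bear out their name of late neuroblasts. The neuroblast list is not given here for LNB, so this check covers only part of the markers. Which cells carried this RNA was not tested.

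In total mRNA the 41 genes together took a smaller share of each library at each later stage. They held 0.537 to 0.670% of counts in NSC, 0.325 to 0.367% in ENB, 0.0967 to 0.148% in LNB and 0.0605 to 0.0760% in neurons, and the ranges of the 4 stages did not overlap. In tissue-level or pooled-cell RNA such as this, fewer cells that replicate and less of the mRNA in each cell cannot be told apart. In the immunoprecipitates the share was 0.258 to 0.353% for NSC, 0.0973 to 0.118% for ENB, 0.0795 to 0.0908% for LNB and 0.0689 to 0.0764% for neurons. The no-HA controls held 0.0654 to 0.0707% in the SVZ and 0.0565 to 0.0659% in the OB. The NSC immunoprecipitates thus lay far above their control, ENB and LNB lay above theirs by less, and neurons lay just above.

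**Figure D1:**
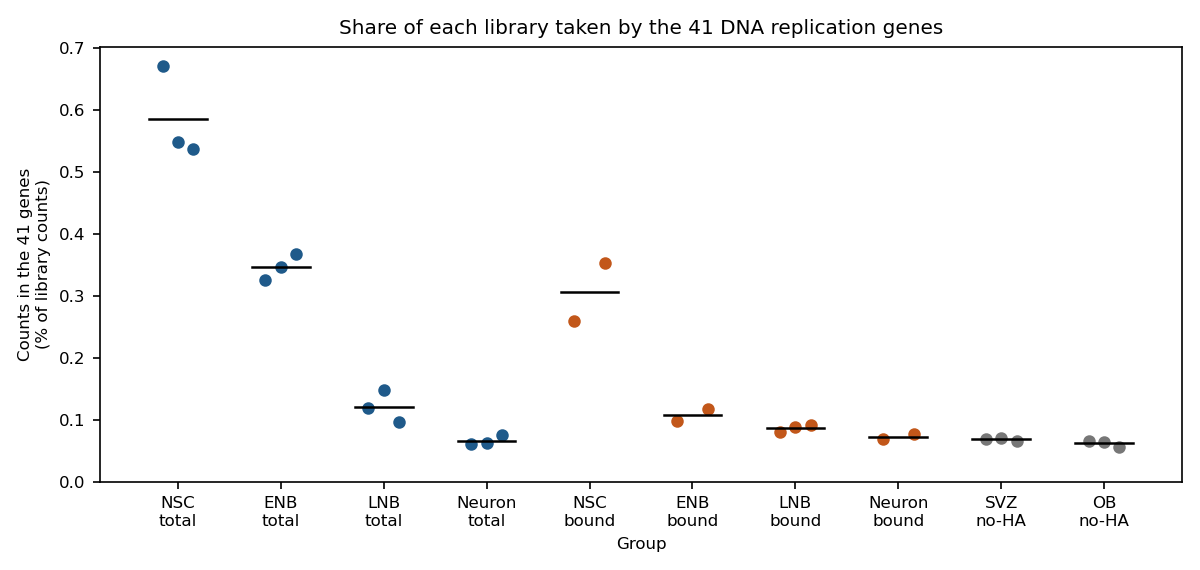
Share of each library's counts that fell in the 41 DNA replication genes (y axis, percent of library counts) for the 10 groups (x axis). Points are libraries, coloured blue for total mRNA, orange for ribosome-bound mRNA and grey for no-HA controls, and black lines are group means. NSC total libraries lie between 0.537 and 0.670%, and ENB, LNB and Neuron immunoprecipitates lie between 0.0689 and 0.118%.

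Across the 3 steps of differentiation in total mRNA, no gene of the 41 rose and between 4 and 16 fell at each step. From NSC to ENB, 4 of 41 fell (Pold2, Pcna, Rpa1 and Rpa2). Of all 17592 genes tested, 5.12% were called lower and 4.95% higher, so this count is near the background. The log2 change was below 0 for 38 of the 41, against 50.5% of all genes, with a median of -0.65, against a median of -0.01 over all genes. The count was 1 without ENB replicate 2 and 2 without any other of these 6 libraries, and Rpa2 was called each time. When only these 6 libraries were fitted, 21 of the 41 were called lower and 1 higher.

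From ENB to LNB, 16 of 41 fell, against 0.966% of all genes tested called lower and 2.8% called higher. The 16 were Cdt1, Mcm4, Mcm5, Mcm6, Prim2, Pold1, Pole, Pcna, Rfc4, Rpa2, Lig1, Rrm1, Rrm2, Tk1, Uhrf1 and Chaf1a. In the same edgeR test on the deposited expected counts, Mcm5, Rfc4, Tk1 and Chaf1a missed the threshold (adjusted p = 0.0704, 0.160, 0.0513 and 0.0968). The log2 change was below 0 for all 41, against 46.9% of all genes, and its median was -1.78, against 0.05 over all genes. In 33 of the 41, every LNB library lay below every ENB library, which held for 11.0% of all genes. The number of calls depended on single libraries. It was 1, 3 and 1 without ENB replicates 1, 2 and 3, 0 and 3 without LNB replicates 1 and 3, and 23 without LNB replicate 2, while the median lay between -1.93 and -1.67. It was also 2 with the second barcode index as a covariate, 29 with DESeq2, 11 when only these 6 libraries were fitted, and 0 when those 6 were fitted with the shared animals as a block. Libraries without a shared animal drop out of that last comparison, so with so few libraries it cannot decide whether the calls hold. Within libraries that carry the same second barcode index, which the labels do not call a batch, the median was -1.62 (39 of 41 below 0) for 1 index and -1.99 (41 of 41 below 0) for the other.

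Markers of other cells moved at this step too. Of the 10 stem cell and astrocyte genes, 6 rose from ENB to LNB and 0 fell, against 2.8% of all genes called higher and 0.966% called lower. Of 6 genes of olfactory ensheathing cells and sensory axons 3 rose, with summed levels of 246 to 739 CPM in ENB and 570 to 5533 CPM in LNB. LNB replicate 2, the library with the lowest levels of both lists, had the largest share of counts in the 41 genes of the 3 LNB libraries, 0.148%. No gene of either list was at 0 in an LNB library, and the part of these cells in the fall was not tested. From NSC to ENB, 4 of 8 oligodendrocyte precursor genes rose, against 4.95% of all genes called higher. Their sums were 31.2 to 166 CPM in NSC and 381 to 721 CPM in ENB, and their part in the changes of that step was not tested either.

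Between LNB and neurons, 15 of 41 fell and 0 rose, against 9.34% of all genes called lower and 5.33% called higher, and the median log2 change was -1.14, against -0.18 over all genes. The count was 8 without LNB replicate 2, and 3 when these 6 libraries were fitted alone. Cdt1, Cdc45, Gins1, Mcm7, Rfc3, Rfc4 and Rrm2 were called without each library in turn. Between NSC and LNB, 30 of 41 were lower in LNB and 0 higher, against 2.59% of all genes called lower and 4.25% called higher. The median log2 difference was -2.26, against 0.10 over all genes, and 18 of the 30 were called without each of the 6 libraries in turn (19 genes in all without NSC replicate 2). This comparison shares its libraries with the first 2 steps and is not separate evidence. All 3 Neuron libraries carry 1 second barcode index and LNB replicate 2 is the only LNB library with it, and within that index the median was -1.80.

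**Figure D2:**
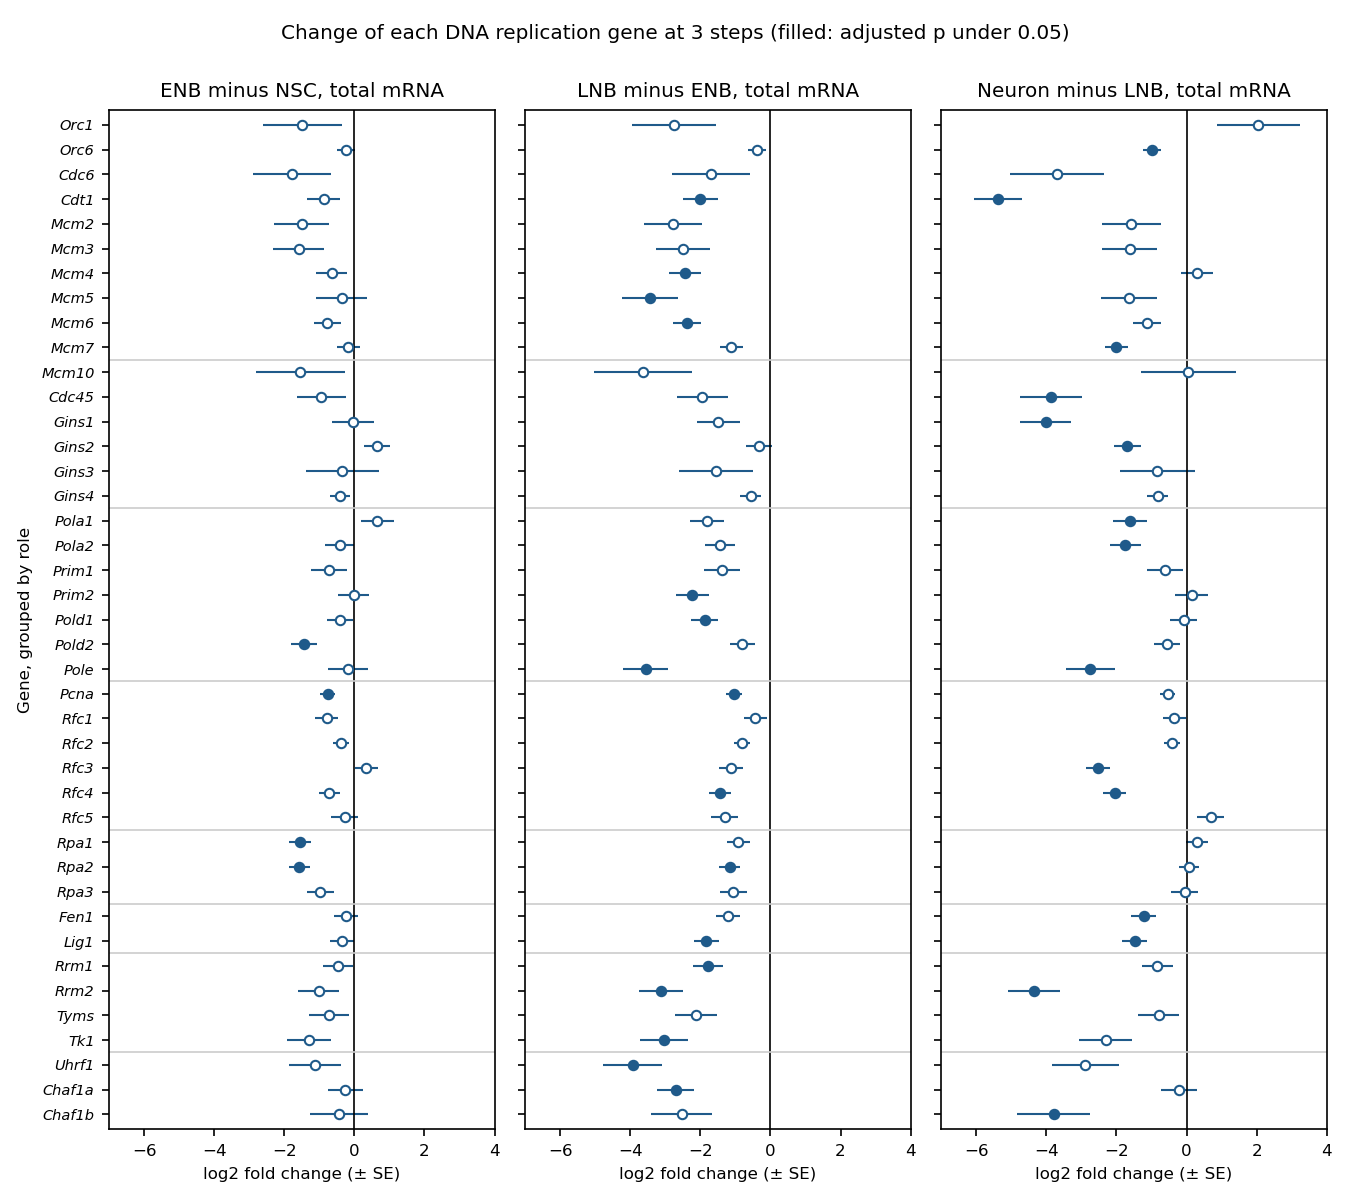
Log2 fold change of each of the 41 genes (rows, grouped by role and separated by grey lines) at 3 steps in total mRNA (panels), with bars of 1 standard error. Filled points are genes with an adjusted p under 0.05. All 41 points of the middle panel lie below 0, and 16 of them are filled.

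Among the licensing genes, which together decide where and when a helicase is loaded, 4 of 10 fell from ENB to LNB (Cdt1, Mcm4, Mcm5 and Mcm6), 3 fell from LNB to neurons (Orc6, Cdt1 and Mcm7), and 7 were lower in LNB than in NSC. Over all genes, 0.966%, 9.34% and 2.59% were called lower in these comparisons, in that order. Mcm7, a subunit of the ring with the highest mean level of the group, was at 380.1, 359 and 308 CPM in NSC and 303, 282 and 346 in ENB. It was at 132, 216 and 80.3 CPM in LNB and 42.4, 23.8 and 41.2 in neurons. NSC and ENB overlapped, and every neuron library lay below every other library. The log2 change was -1.11 ± 0.33 (adjusted p = 0.0829) from ENB to LNB and -2.002 ± 0.34 (adjusted p = 0.00250) from LNB to neurons. For Mcm2 and Mcm3, also subunits of the ring, NSC and ENB did not overlap. Mcm2 was at 248, 267 and 197 CPM in NSC, 77.0, 80.1 and 93.7 in ENB, 4.26, 11.0 and 21.4 in LNB and 8.24, 0 and 3.72 in neurons. NSC, ENB and LNB did not overlap, but the changes at the single steps missed the threshold (NSC to ENB, -1.51 ± 0.77, adjusted p = 0.240), and LNB was lower than NSC by 19.5-fold in mean CPM (-4.30 ± 0.88, adjusted p = 0.0131). Mcm3 stood at 265, 204 and 185 CPM in NSC, 74.4, 68.7 and 74.2 in ENB, 18.7, 11.4 and 8.37 in LNB and 8.76, 0 and 3.54 in neurons, again with NSC, ENB and LNB apart. Mcm4 and Mcm6 fell from ENB to LNB with log2 changes of -2.44 ± 0.47 and -2.39 ± 0.40.

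Mcm5 was at 166, 148 and 151 CPM in ENB and 21.9, 16.3 and 4.45 in LNB, and fell by 10.9-fold in mean CPM, a log2 change of -3.43 ± 0.80 (adjusted p = 0.0393). The ring holds 1 copy of each subunit, and TPM, which is scaled by transcript length, allows the subunits to be set side by side. In TPM, the highest of the 6 Mcm subunits was 3.39 to 4.28 times the lowest in each NSC library, 5.10 to 7.93 times in ENB and 42.3 to 52.9 times in LNB. Mcm7 was the highest in all 3 LNB libraries, at 89.4, 198 and 63.0 TPM, with Mcm2 at 1.69, 4.68 and 8.32 TPM and Mcm5 at 9.56, 8.28 and 1.35 TPM. The 6 subunits lay within a narrower range in NSC than in LNB, which was not tested.

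Orc6 and Orc1 are subunits of the origin recognition complex, and they differed from each other. Orc6 was at 76.2, 82.4 and 77.3 CPM in NSC, 72.4, 77.5 and 51.5 in ENB, 49.2, 64.6 and 39.4 in LNB and 30.7, 25.1 and 22.2 in neurons. Only the neurons lay below all other stages, with a log2 change of -0.97 ± 0.26 (adjusted p = 0.0270) from LNB. Orc1 was low throughout, at 11.9, 20.8 and 10.4 CPM in NSC, 5.87, 0.626 and 8.87 in ENB, 0.243, 1.86 and 0 in LNB and 3.59, 4.53 and 1.30 in neurons. The neuron counts of Orc1 were 39.0 times its estimated counts of the same libraries, against 0.696 in NSC, so its level in neurons is uncertain, and the difference from LNB was not called (2.05 ± 1.18, adjusted p = 0.266). Cdt1, which brings the ring to the origin, fell at 2 steps. It was at 75.8, 70.9 and 66.3 CPM in NSC, 45.7, 37.6 and 32.5 in ENB, 15.9, 7.72 and 5.16 in LNB and 0.317, 0 and 0.372 in neurons, and no pair of stages overlapped. Its log2 change was -2.002 ± 0.50 (adjusted p = 0.0476) from ENB to LNB and -5.38 ± 0.68 (adjusted p = 0.000508) from LNB to neurons. Cdc6, the loading factor that acts with Cdt1, was at 70.3, 47.5 and 57.8 CPM in NSC and 10.7, 34.3 and 6.26 in ENB, and its 3 LNB libraries at 0.122, 5.38 and 10.5 overlapped with ENB.

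**Figure D3:**
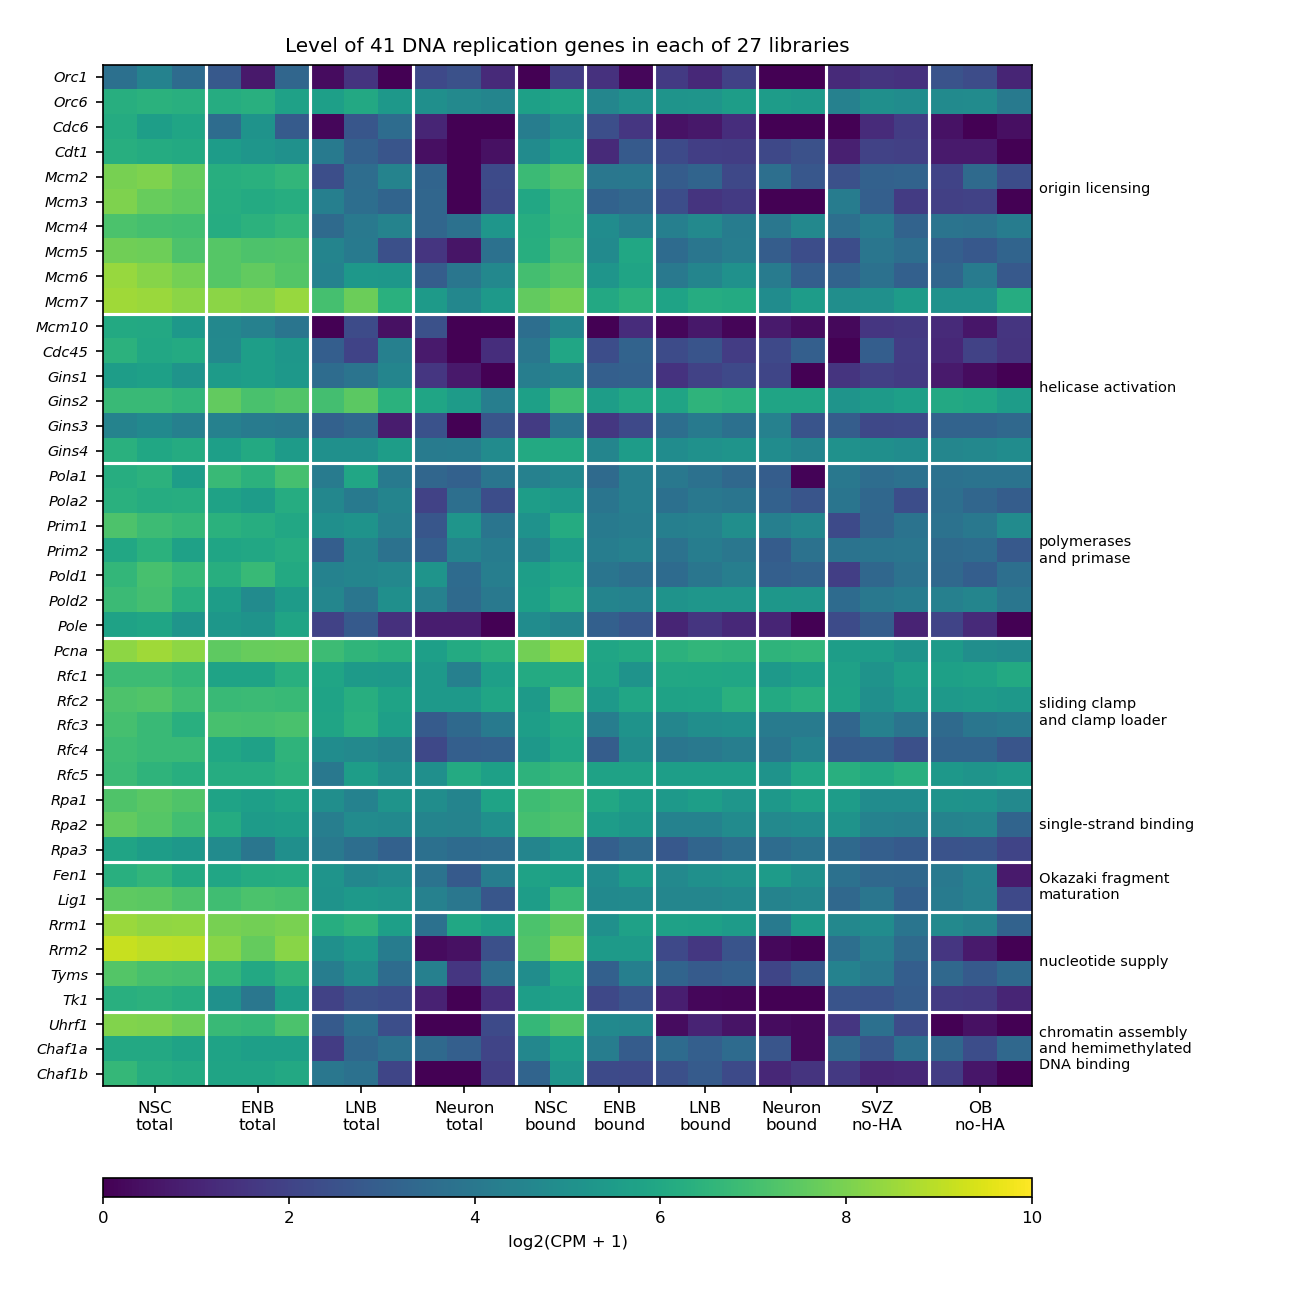
Level of the 41 genes (rows, grouped by role) in each of the 27 libraries (columns, grouped by the 10 groups), as log2(CPM + 1). NSC total libraries are the brightest block, the columns darken towards Neuron total, and in the immunoprecipitates only the NSC columns stand out from the no-HA controls.

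The helicase activators are the group in which no gene was called from NSC to ENB or from ENB to LNB, and 3 of 6 fell from LNB to neurons (Cdc45, Gins1 and Gins2). At these steps 5.12%, 0.966% and 9.34% of all genes were called lower. Mcm10, a scaffold needed for the helicase to start, was low outside NSC and ENB. It was at 65.6, 64.7 and 38.8 CPM in NSC, 24.8, 19.8 and 13.6 in ENB, 0, 3.93 and 0.356 in LNB and 4.54, 0 and 0 in neurons. All LNB libraries lay below all ENB libraries, yet at these low counts the error was large, -3.64 ± 1.40 (adjusted p = 0.184). Cdc45, a subunit of the moving helicase, was at 83.8, 62.6 and 67.4 CPM in NSC, 25.4, 48.0 and 38.0 in ENB, 6.93, 3.03 and 19.4 in LNB and 0.634, 0 and 1.49 in neurons, and the last step was called (-3.86 ± 0.89, adjusted p = 0.0133). Gins2, a GINS subunit, was the only 1 of the 6 with all ENB libraries above all NSC libraries in CPM. Its CPM was 108, 108 and 93.6 in NSC, 194, 139 and 155 in ENB, 129, 179 and 81.9 in LNB and 58.1, 43.6 and 18.4 in neurons, with a log2 change from ENB to LNB of -0.33 ± 0.37 (adjusted p = 0.742). The deposited TPM gave another order, 68.2, 55.2 and 41.7 in NSC, 44.7, 24.6 and 44.9 in ENB, 10.9, 46.1 and 4.85 in LNB and 22.5, 14.1 and 8.12 in neurons. The ratio of raw to estimated counts of Gins2 was 0.676 in NSC and 1.33 in LNB, so the level of Gins2 and its call from LNB to neurons are uncertain. Gins1, Gins3 and Gins4, the other GINS subunits, had log2 changes from ENB to LNB of -1.49 ± 0.62, -1.56 ± 1.06 and -0.57 ± 0.29.

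Of the polymerase and primase genes, 3 of 7 fell from ENB to LNB (Prim2, Pold1 and Pole) and 3 from LNB to neurons (Pola1, Pola2 and Pole), while Pold2 fell from NSC to ENB. The shares of all genes called lower were 0.966%, 9.34% and 5.12% in that order. Pole encodes the catalytic subunit of polymerase epsilon, which copies the leading strand. It was at 52.8, 57.1 and 36.4 CPM in NSC, 38.2, 34.4 and 56.7 in ENB, 2.92, 6.13 and 1.60 in LNB and 0.739, 0.735 and 0 in neurons. NSC and ENB overlapped, and every LNB library lay below them, with a fall of 12.1-fold in mean CPM and a log2 change of -3.57 ± 0.64 (adjusted p = 0.0169). Pold1, the catalytic subunit of polymerase delta, was at 96.2, 134 and 103 CPM in NSC, 76.7, 105 and 66.8 in ENB, 20.5, 22.5 and 24.6 in LNB and 35.3, 10.2 and 18.4 in neurons. It fell from ENB to LNB (-1.88 ± 0.39, adjusted p = 0.0275), and LNB and neurons overlapped. Its partner Pold2 was at 111, 129 and 79.2 CPM in NSC and 46.8, 27.04 and 44.4 in ENB, a log2 change of -1.43 ± 0.37 (adjusted p = 0.0311). Pola1 and Pola2, subunits of polymerase alpha, had log2 changes from ENB to LNB of -1.81 ± 0.48 and -1.44 ± 0.43, which missed the threshold. Prim1, the catalytic primase subunit, was at 149, 116 and 100.4 CPM in NSC, 82.0, 74.9 and 63.2 in ENB, 30.2, 34.3 and 19.8 in LNB and 5.39, 36.6 and 13.6 in neurons. NSC, ENB and LNB did not overlap, and of the tests LNB against NSC passed (-2.11 ± 0.52, adjusted p = 0.0323).

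Of the clamp and its loader, Pcna fell at the first 2 steps, and the loader subunit Rfc4 fell at the last 2 and Rfc3 at the last. Pcna, the ring that tethers polymerases, was at 317, 375 and 315 CPM in NSC, 183, 205 and 207 in ENB, 116, 93.1 and 79.95 in LNB and 49.5, 67.8 and 81.7 in neurons. NSC, ENB and LNB did not overlap, and the highest neuron library was within the LNB range. Pcna fell from NSC to ENB (-0.76 ± 0.22, adjusted p = 0.0463) and from ENB to LNB (-1.04 ± 0.22, adjusted p = 0.0285), and in TPM it was still at 66.9, 101 and 127 in neurons, the highest median of the 41 genes there. Rfc1, the large subunit of the loader that opens the clamp, was at 115, 114 and 98.2 CPM in NSC, 55.5, 54.6 and 79.2 in ENB, 57.5, 42.7 and 40.6 in LNB and 42.0, 19.3 and 49.5 in neurons. Only NSC stood apart from all other libraries, and LNB overlapped with both ENB and neurons (-0.43 ± 0.32, adjusted p = 0.565 from ENB to LNB). The small loader subunits differed among themselves. Rfc4 fell from ENB to LNB (-1.44 ± 0.31) and again to neurons (-2.05 ± 0.33), Rfc3 fell at the last step (-2.53 ± 0.35), and Rfc2 and Rfc5 passed at no single step. The ratio of raw to estimated counts of Rfc5 was 0.574 in NSC and 1.22 in neurons, so its level is uncertain.

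Replication protein A coats exposed single strands. It was the group with the largest share of calls from NSC to ENB, 2 of 3, against 5.12% of all genes called lower. Rpa1, the large subunit, was at 151, 173 and 149 CPM in NSC, 55.1, 49.5 and 56.3 in ENB, 29.8, 20.6 and 35.3 in LNB and 29.0, 22.0 and 54.6 in neurons. NSC lay above all other libraries by a wide gap, and neurons overlapped with both LNB and ENB. The log2 change was -1.56 ± 0.32 (adjusted p = 0.0125) from NSC to ENB and 0.30 ± 0.32 (adjusted p = 0.565) from LNB to neurons. Rpa2 was at 192, 162 and 125 CPM in NSC and 70.5, 43.9 and 46.9 in ENB (-1.57 ± 0.29, adjusted p = 0.00768) and Rpa3 missed the threshold there (-0.97 ± 0.38, adjusted p = 0.125). All 3 subunits were lower in LNB than in NSC, against 2.59% of all genes called lower. From LNB to neurons their log2 changes lay between -0.05 and 0.30.

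Of the Okazaki fragment genes, Lig1 fell from ENB to LNB and both fell from LNB to neurons. The shares of all genes called lower were 0.966% and 9.34% at these steps. Lig1, the ligase that seals the fragments, was at 182, 179.8 and 148 CPM in NSC, 121, 142 and 136 in ENB, 34.5, 40.9 and 36.9 in LNB and 19.96, 14.4 and 5.40 in neurons, with no overlap between stages. It fell from ENB to LNB (-1.83 ± 0.35, adjusted p = 0.0218) and from LNB to neurons (-1.48 ± 0.35, adjusted p = 0.0158). Fen1, the nuclease that trims their flaps, fell at the last step (-1.22 ± 0.35, adjusted p = 0.0378) and was lower in LNB than in NSC (-1.46 ± 0.35, adjusted p = 0.0280).

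Nucleotide supply held Rrm2, the gene with the highest CPM of all 41 in NSC, but CPM is not scaled by transcript length. In TPM, the median of Rrm2 in NSC was 348, below that of Pcna at 429. Rrm2, the S phase subunit of ribonucleotide reductase, was at 577, 517 and 504 CPM in NSC, 294, 199 and 297 in ENB, 31.6, 40.9 and 17.5 in LNB and 0.211, 0.367 and 4.47 in neurons. No pair of stages overlapped, and the fall was 8.78-fold from ENB to LNB in mean CPM (-3.13 ± 0.63, adjusted p = 0.0270) with a further log2 change of -4.36 ± 0.75 (adjusted p = 0.00277) to neurons. Its partner Rrm1, the large subunit, was at 357, 326 and 328 CPM in NSC, 246, 233 and 252 in ENB, 73.4, 89.5 and 49.5 in LNB and 12.1, 60.6 and 47.3 in neurons, and fell from ENB to LNB (-1.78 ± 0.44, adjusted p = 0.0444). In TPM, Rrm2 was 2.90 to 3.01 times Rrm1 in NSC, 1.59 to 2.23 times in ENB, 0.632 to 0.969 times in LNB and 0.0265 to 0.158 times in neurons. These ratios did not overlap between stages, and 3 libraries against 3 cannot reach an exact two-sided permutation p below 0.10. Rrm2b, the alternative small subunit used outside S phase, was at 15.1 to 27.4 CPM in NSC and 15.0 to 25.9 in neurons and passed at no step. Tyms, which makes thymidylate, passed at no single step and was lower in LNB than in NSC (-2.86 ± 0.61, adjusted p = 0.0163). Tk1, the S phase thymidine kinase, was at 79.2, 84.7 and 73.6 CPM in NSC, 32.1, 14.6 and 49.1 in ENB, 2.92, 4.62 and 4.10 in LNB and 0.950, 0 and 1.49 in neurons, with no overlap between stages and a fall from ENB to LNB (-3.04 ± 0.68, adjusted p = 0.0343). The mitochondrial kinase Tk2 was at 56.8 to 67.0 CPM in ENB and 39.7 to 66.0 in LNB and passed at no step.

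Of the 3 chromatin genes, Uhrf1 and Chaf1a fell from ENB to LNB and Chaf1b from LNB to neurons. At these steps 0.966% and 9.34% of all genes were called lower. The log2 change of Uhrf1 from ENB to LNB was the lowest of the 41 at that step. Uhrf1, which binds hemimethylated DNA and brings in the maintenance methyltransferase, was at 272, 269 and 224 CPM in NSC, 109, 98.8 and 141 in ENB, 6.20, 11.9 and 4.27 in LNB and 0, 0 and 3.72 in neurons. No pair of stages overlapped, and LNB was 34.1-fold lower than NSC in mean CPM, with a log2 change from ENB to LNB of -3.93 ± 0.84 (adjusted p = 0.0295). Chaf1a, the large subunit of the histone chaperone CAF-1, fell from ENB to LNB (-2.71 ± 0.53, adjusted p = 0.0249), and Chaf1b fell from LNB to neurons (-3.79 ± 1.05, adjusted p = 0.0310). The ratio of raw to estimated counts of Chaf1a was 0.591 in NSC and 1.03 in LNB, so its level is uncertain. With the estimated counts its change from ENB to LNB missed the threshold (-2.97 ± 0.89, adjusted p = 0.0968). Dnmt1, the methyltransferase that Uhrf1 serves and not one of the 41, was at 177, 207 and 192 CPM in ENB and 79.6, 92.7 and 63.9 in LNB (-1.28 ± 0.32, adjusted p = 0.0480).

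**Figure D4:**
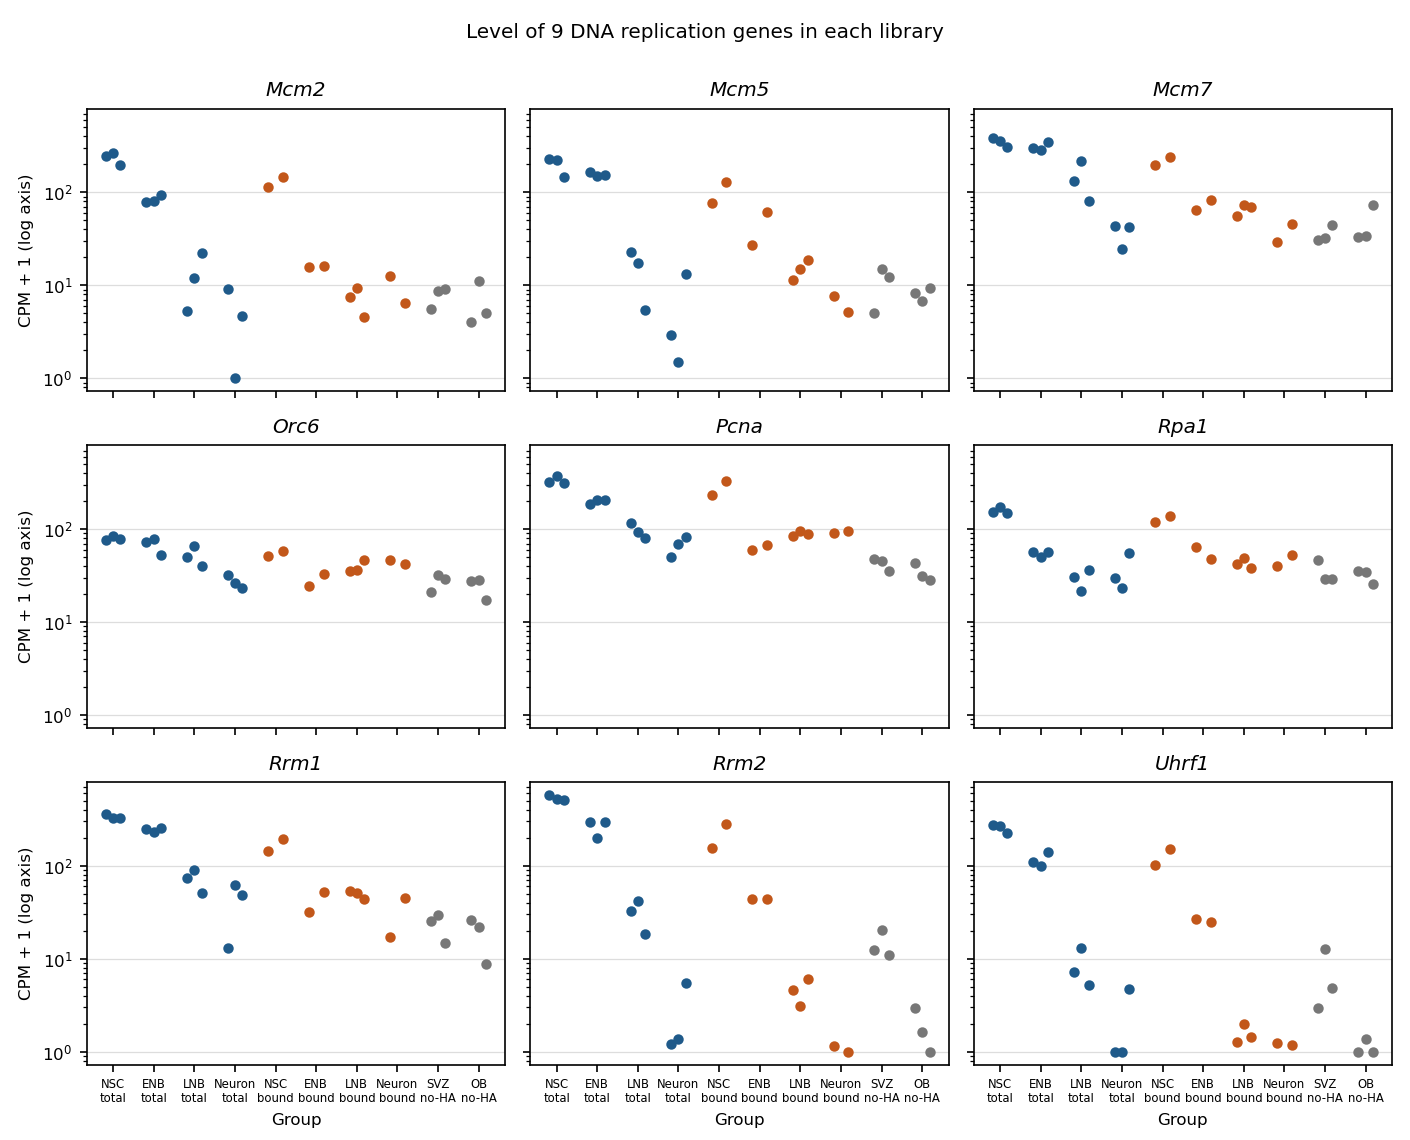
CPM + 1 on a log axis for 9 of the genes (panels) in each library, by group (x axis). Blue points are total mRNA, orange ribosome-bound mRNA and grey no-HA controls. Rrm2 and Uhrf1 run from the top of the axis to near its foot, whereas Orc6, Pcna and Rpa1 keep clear of its foot in all 10 groups.

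Beyond the 41, 79 other genes of replication and the S phase were followed in lists. From ENB to LNB, 16 of the 79 fell and 0 rose, against 0.966% of all genes tested called lower and 2.8% called higher. Their median log2 change was -0.81, against 0.05 over all genes. Among these lists, 2 of 15 other licensing and firing regulators fell (Gmnn and Ticrr), 4 of 21 other replisome and fork protection genes, 4 of 18 E2F and S phase genes (E2f7, Ccne1, Ccna2 and Rbl1) and 4 of 11 other chromatin genes. The origin recognition subunits Orc2, Orc3, Orc4 and Orc5 passed at no step, and Orc4 was at 60.7 to 64.9 CPM in NSC and 75.4 to 104 in neurons. Gmnn encodes geminin, the inhibitor of Cdt1, and was at 82.0, 53.9 and 56.6 CPM in NSC, 30.9, 50.6 and 29.3 in ENB, 6.32, 8.20 and 8.37 in LNB and 7.07, 2.82 and 13.2 in neurons (-2.27 ± 0.49, adjusted p = 0.0306 from ENB to LNB). From NSC to ENB, 6 of the 79 fell (Shmt2, Cad, Ccne1, Slbp, Hat1 and Rbbp7), against 5.12% of all genes called lower, so this count is near the background. The median of the 79 was -0.51, against -0.01 over all genes.

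Genes of mitosis gave a separate reading of division. None of 12 mitotic genes was called from NSC to ENB, where their median log2 change was -0.12. From ENB to LNB, 6 of 12 fell, against 0.966% of all genes called lower, and their median was -3.19. Summed CPM of the 12 was 1985 to 2520 in NSC, 1681 to 2494 in ENB, 125 to 256 in LNB and 2.01 to 67.4 in neurons. NSC and ENB overlapped for mitosis, whereas summed CPM of the 41 replication genes was 4933 to 6089.5 in NSC and 3438 to 3825 in ENB and did not overlap. Whether the 2 sets differ in their change from NSC to ENB was not tested.

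Ribosome-bound mRNA of the replication genes was enriched in the NSC immunoprecipitate. Of the 41, 32 were higher than in the SVZ no-HA control and 0 lower, against 8.75% of all 19066 genes tested called higher and 6.59% called lower, and the median log2 difference was 2.63, against -0.14 over all genes. In 38 of the 41, both NSC libraries lay above all 3 controls, which held for 22.1% of all genes. Of the 32, 20 were called without each library in turn (20 genes in all without NSC replicate 2), and 19 genes were called with the second barcode index as a covariate. Pcna was at 232 and 330.5 CPM in NSC immunoprecipitates and 46.7, 45.0 and 34.6 in the controls (2.74 ± 0.24, adjusted p = 1.48e-05). Rrm2 was at 155 and 284 CPM against 11.5, 19.4 and 9.90 (4.01 ± 0.55, adjusted p = 0.000376), and Uhrf1 was at 101 and 150.2 CPM against 1.97, 11.8 and 3.88 (4.42 ± 0.60, adjusted p = 0.000377). Mcm2 was at 113 and 147 CPM against 4.59, 7.65 and 8.18, or 19.1-fold higher in mean CPM (4.25 ± 0.49, adjusted p = 0.000108). Groups did not overlap for any of these 4 genes. The 9 genes that missed the threshold were Orc1, Gins1, Gins3, Pola1, Pole, Rfc1, Rfc2, Rfc5 and Chaf1a. Orc1 was at 0 and 2.46 against 1.31, 1.84 and 1.72 CPM, the only gene with a difference below 0, and the loader subunits Rfc1 and Rfc5 differed by 0.63 ± 0.25 and 0.37 ± 0.23. In TPM, Rfc5 was at 22.9 and 36.3 against 10.9, 7.43 and 10.9, without overlap, so the size of its difference is uncertain.

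The ENB immunoprecipitate showed less of this. Only Mcm5 and Mcm6 of the 41 were higher than in the SVZ control, against 0.708% of all genes called higher and 0.813% called lower, and 0 were lower, with a median log2 difference of 0.74. Mcm6 was at 36.2 and 56.6 CPM against 8.03, 12.2 and 7.32 (2.33 ± 0.45, adjusted p = 0.0134) and Mcm5 at 26.5 and 61.1 against 4.10, 14.1 and 11.3 (2.15 ± 0.46, adjusted p = 0.0253). No gene of the 41 was called without SVZ control replicate 1 or 3 or without ENB replicate 2 in edgeR's test. With all libraries, 14 had an unadjusted p under 0.05, DESeq2 called 5, 8 were called without the filter on low counts and 1 when only these 5 libraries were fitted. Oligodendrocyte genes, which the labelled cells should lack, summed to 19846 to 20252 CPM in the ENB immunoprecipitates and to 17717 to 22586 CPM in the SVZ controls, against 8055 to 8585 CPM in NSC immunoprecipitates. The ENB sums fell within the range of tissue without the tag, and the part of this background in each bound level was not tested.

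In the bulb, few genes differed from the control. Of the 41, 4 were higher in LNB than in the OB control (Cdt1, Pold2, Pcna and Rrm1) and Tk1 was lower, against 7.0% of all genes higher and 3.06% lower. For neurons, 5 were higher (Orc6, Cdt1, Pold2, Pcna and Rpa3) and 3 lower (Orc1, Mcm3 and Tk1), against 11.6% higher and 15.7% lower, so these counts are near the background. Without 1 library, 1 to 4 genes were called for LNB (1 without LNB replicate 2 or 3, 2 without LNB replicate 1, 3 without control replicate 2 or 3) and 3 for neurons without Neuron replicate 2. Pcna was called each time in both, and Tk1 in neurons. For LNB the count was 2 with RLE scale factors and 9 without the filter on low counts, and for neurons it was 3 when only these 5 libraries were fitted. Pcna was at 83.9, 94.9 and 88.6 CPM in LNB, 89.6 and 94.3 in neurons and 42.7, 30.0 and 27.1 in the OB controls, with both stages above every control (1.42 ± 0.22, adjusted p = 0.00423 and 1.47 ± 0.24, adjusted p = 0.000613). Cdt1 was at 3.75, 2.64 and 2.50 CPM in LNB, 3.45 and 4.56 in neurons and 0.653, 0.639 and 0 in the controls. Tk1 had 0 counts in both Neuron libraries and 2.35, 2.17 and 1.08 CPM in the controls, and was at least 15.0-fold lower, the bound being set at 3 counts over the group. Orc1 was likewise at least 26.7-fold lower and Mcm3 at least 15.2-fold lower, with controls at 4.97, 3.96 and 1.08 and 2.74, 2.94 and 0 CPM. For Mcm3, 1 control library was also at 0. In TPM, Orc1 was at 1.06, 0.57 and 0.06 in the OB controls, so the size of its difference is uncertain.

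Between NSC and ENB in ribosome-bound mRNA, 16 of 41 fell and 0 rose, against 4.85% of all genes called lower and 3.44% called higher. All 41 log2 changes were below 0, against 47.7% of all genes, with a median of -1.58, against 0.02 over all genes. The number of calls was 12 and 3 without NSC replicates 1 and 2, 3 and 7 without ENB replicates 1 and 2, and 10 with the estimated counts, and Mcm2 and Pcna were called each time that a library was left out. Pcna was at 58.4 and 67.0 CPM in ENB (-2.16 ± 0.27, adjusted p = 0.000872), Mcm2 at 14.8 and 15.1 (-3.12 ± 0.55, adjusted p = 0.00466) and Tk1 at 3.48 and 5.04 (-3.57 ± 0.66, adjusted p = 0.00592). In the SVZ controls, Tk1 was at 5.08, 4.74 and 6.46 CPM and overlapped with ENB, whereas both ENB libraries lay above every control for Pcna and Mcm2.

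From ENB to LNB, Mcm5, Rrm2, Tk1 and Uhrf1 fell in bound mRNA and 0 rose. These 4 of 41 stand against 6.05% of all genes called lower and 6.81% called higher, so this count is near the background. Below 0 were 28 of the 41 log2 changes, against 46.8% of all genes. Their median was -0.22, against 0.08 over all genes. Rrm2 was at 42.9 and 42.7 CPM in ENB and 3.62, 2.09 and 4.99 in LNB (-3.57 ± 0.57, adjusted p = 0.000469). Uhrf1 was at 25.6 and 24.1 CPM in ENB and 0.268, 0.973 and 0.454 in LNB (-5.44 ± 0.71, adjusted p = 7.65e-05), and Tk1 at 3.48 and 5.04 and 0.804, 0.139 and 0.113 (-3.57 ± 0.67, adjusted p = 0.00231). ENB and LNB did not overlap for these 3 genes, which were called without each library in turn. The count was 7 with DESeq2 (6 lower, 1 higher), 9 without the filter on low counts (8 lower, 1 higher) and 12 when only ENB and LNB were fitted (10 lower, 2 higher). This step crosses tissues, and the no-HA controls of the 2 tissues differed in the same direction. Rrm2 was at 11.5, 19.4 and 9.90 CPM in the SVZ controls and 1.96, 0.639 and 0 in the OB controls (-4.01 ± 0.63, adjusted p = 0.000381), and Uhrf1 was at 1.97, 11.8 and 3.88 against 0, 0.384 and 0 (-5.42 ± 0.86, adjusted p = 0.000382). Of the 41, 3 were lower in the OB than in the SVZ control (Rfc5, Rrm2 and Uhrf1). Over all genes, 6.12% were called lower and 5.65% higher, so this count is near the background. The count was 6 with DESeq2 and 7 without the filter on low counts. In TPM, Rfc5 was at 10.9, 7.43 and 10.9 in the SVZ controls and 11.3, 5.46 and 12.2 in the OB controls. These overlapped, so the call of Rfc5 is uncertain. The part of the tissue background in the fall of the bound mRNA was not tested.

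From LNB to neurons 2 of 41 fell, Mcm3 and Rrm2, and 0 rose. Over all genes, 3.75% were called lower and 0.378% higher, so the number of falls is near the background. All bound LNB libraries carry the same second barcode index, and neither bound Neuron library carries it. Between these libraries, stage and index therefore cannot be told apart. Rrm2 was at 0.164 and 0 CPM in neurons against 3.62, 2.09 and 4.99 in LNB (-5.19 ± 1.04, adjusted p = 0.00945). Mcm3 was at 0 counts in both Neuron libraries and 4.16, 1.81 and 2.27 CPM in LNB, at least 22.0-fold lower. Without Neuron replicate 2, 0 of the 41 passed edgeR's quasi-likelihood test, 1 passed without any of the LNB replicates 1, 2 and 3 and 4 without Neuron replicate 1. With all libraries, 11 had an unadjusted p under 0.05, DESeq2 called 4, and 8 were called without the filter on low counts. Orc1, Cdc6 and Tk1 were also at 0 counts in both Neuron libraries.

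Whether the change between stages differed between ribosome-bound and total mRNA was tested as an interaction over the 21 libraries with a tag or a sort. From NSC to ENB, the log2 change of Pcna was more negative in bound mRNA by -1.23 ± 0.31 (adjusted p = 0.0403), the only 1 of 41 called, against 1.32% of all genes called lower and 1.49% called higher. The difference was below 0 for 36 of the 41, against 43.3% of all genes. From ENB to LNB, Pcna (1.44 ± 0.30, adjusted p = 0.0110) and Pold1 (1.93 ± 0.53, adjusted p = 0.0378) had a change in bound mRNA above that in total mRNA, against 1.89% of all genes called higher and 4.26% called lower. The difference was below 0 for 5 of the 41, against 52.9% of all genes. Pold1 was at 13.9 and 11.5 CPM in bound ENB and 10.3, 14.2 and 18.4 in bound LNB, with SVZ controls at 2.62, 9.03 and 12.6 and OB controls at 9.41, 6.90 and 11.4, so its bound level overlapped with the controls at both stages while its total mRNA fell. With the replicate number as a block, which pairs bound ENB and LNB of the same animals, 0 of the 41 were called in either of these 2 comparisons, and 7 and 14 had an unadjusted p under 0.05 without the block. DESeq2 called 2 and 6. From LNB to neurons, Cdt1 (5.80 ± 0.93, adjusted p = 0.00431) and Cdc45 (4.37 ± 1.15, adjusted p = 0.0454) were called higher, against 1.46% of all genes called higher and 1.69% called lower. In the bound libraries of this step, stage and second barcode index cannot be told apart. Cdc45 was at 3.89, 5.00 and 2.38 CPM in bound LNB and 3.61 and 7.10 in bound neurons, and Cdt1 at 3.75, 2.64 and 2.50 and 3.45 and 4.56. Both genes were near 0 in total mRNA of neurons, and the OB controls held 1.18, 2.94 and 1.83 CPM of Cdc45, within the range of bound LNB for 1 library. Of all 5 interactions, that of Cdt1 alone was called in every fit that left out 1 library, but it missed the threshold when only LNB and neurons were fitted (5.69, adjusted p = 0.0504), and Cdc45 missed it there too (adjusted p = 0.199). With DESeq2, 8 of the 41 were called from LNB to neurons. When only the stages compared were fitted, 6 were called from NSC to ENB and 6 from ENB to LNB. Among the fits that left out 1 library, the Pcna interaction from NSC to ENB was called only without NSC total replicate 2. From ENB to LNB the count was 8 without LNB total replicate 2, 0 without ENB bound replicate 1 and 1 without ENB total replicate 1 or 2, LNB total replicate 1 or 3 or LNB bound replicate 2 or 3. From LNB to neurons it was 6 without Neuron total replicate 3, 4 without LNB total replicate 3, and 1 without LNB total replicate 1, Neuron total replicate 1, Neuron bound replicate 2 or any LNB bound replicate.

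**Figure D5:**
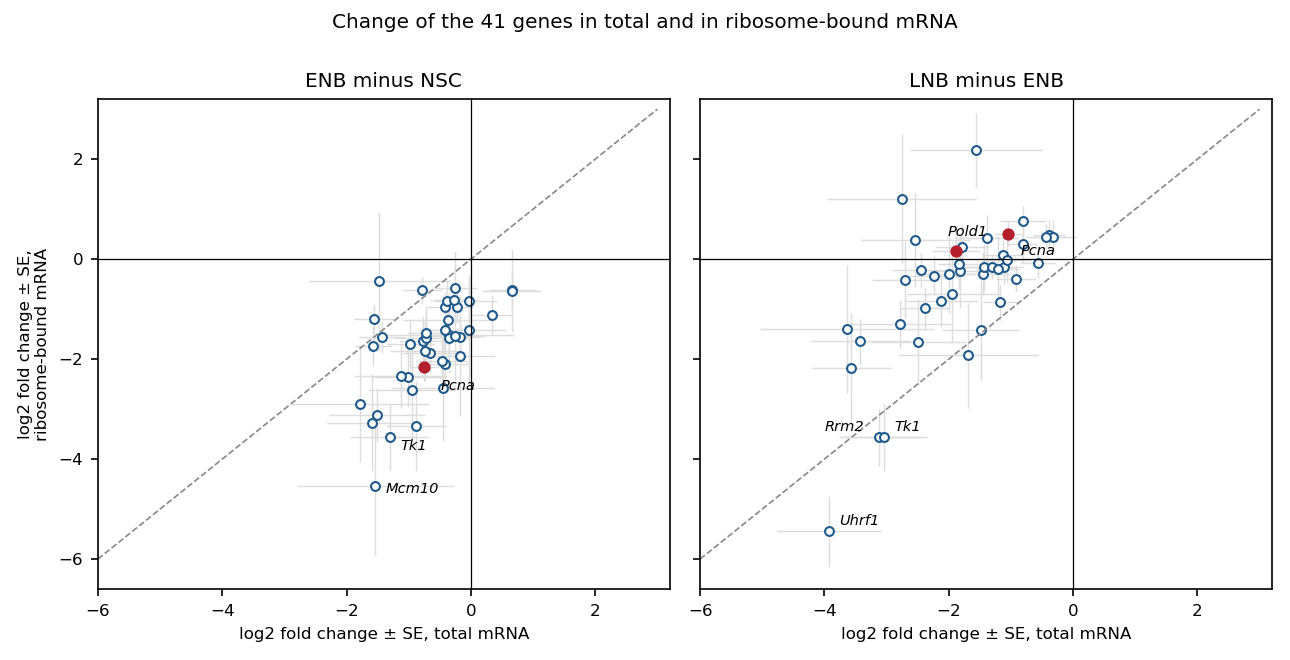
Log2 fold change of the 41 genes in total mRNA (x axis) and in ribosome-bound mRNA (y axis) from NSC to ENB (left) and from ENB to LNB (right), with bars of 1 standard error and a dashed line of equal change. Red points are genes whose interaction passed the threshold, Pcna on the left and Pcna and Pold1 on the right. On the left 36 of 41 genes have a difference of the 2 changes below 0, and on the right 5 of 41.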

How the data were processed

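The 41 genes and all gene lists were chosen with earlier results of these data known. Libraries were made with 15 to 18 PCR cycles, per the labels' protocols. The deposited table of raw counts per Ensembl gene was the main input, and the tool that made it is not given in the sources used here. The authors also deposited expected counts and TPM for each library, estimated with RSEM 1.2.21 and Bowtie2 2.2.6 on GRCm38, per the submitters' processing notes. Expected counts were rounded for an alternative fit, TPM served for levels between genes, and 92 TPM rows without a gene ID were not used. Whether the counting used strand is not given in the sources used here.

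From the raw counts, edgeR 4.0.16 in R 4.3.3 (limma 3.58.1 underneath) fitted a quasi-likelihood model by group after TMM scaling and filterByExpr, with Benjamini-Hochberg adjustment over all genes tested. The 12 total libraries made 1 fit (17592 genes), the 15 immunoprecipitation libraries another (19066 genes), and the 21 total and bound libraries the interaction (19913 genes). Standard errors are the absolute log2 change divided by the square root of F. The script was tested on simulated data. Library totals of 5225929 to 15994635 counts limit genes below about 1 CPM, and PCR reads without molecular identifiers are not independent molecules. A fold against a group at 0 counts used 3 counts over the group as the floor.

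Alternatives were RLE scale factors, no filter on low counts, DESeq2 1.42.0, expected counts, the replicate number or the animal tag as a block, the second barcode index as a covariate, only the groups compared, and leaving out each library. Bound ENB and LNB libraries with the numbers 1 and 2 share an animal, per tags in the library names, so the numbers pair those samples. In total mRNA, ENB 2 shares animals with LNB 3 and ENB 3 with LNB 2. Correlations of same-numbered deviations from the group means were -0.114 to 0.0656 in total mRNA and -0.0130 to 0.0911 in bound mRNA. Spearman correlations between replicates were 0.850 to 0.986 over 24 pairs, and no pair had identical values.

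Genes given in every library were, by rule, the gene of each role with the highest mean CPM, the 3 largest and 3 smallest changes from ENB to LNB, genes called against the main direction and genes called in an interaction. The other genes named were chosen after their values were seen. The separate count for the list of other nucleotide genes from ENB to LNB is not reported here.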

Additional observations from a re-analysis of the deposited data

Results flagged for a closer look

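In 5 cases the change between stages differed between ribosome-bound and total mRNA by the interaction test of edgeR's quasi-likelihood model over 21 libraries. The change of Pcna in bound mRNA was below that in total mRNA from NSC to ENB (-1.23 on the log2 scale) and above it from ENB to LNB (1.44). Pold1 differed from ENB to LNB (1.93), and Cdc45 (4.37) and Cdt1 (5.80) from LNB to neurons. The bound libraries of Pold1 overlapped with the no-HA controls in both tissues. Those of Pcna lay above every control in both tissues, and those of Cdt1 lay above every OB control. The part of background RNA in these differences was not tested.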

How the results depend on the processing

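Values here are the number of the 41 genes past the threshold. Over 142 calls of single genes and 1811 alternative fits of them, 1318 kept the call, 493 lost it and 0 reversed. With only the groups compared, counts became 22 from NSC to ENB and 3 from LNB to neurons in total mRNA, 12 from ENB to LNB in bound mRNA, 1 for ENB and 3 for neurons against their controls, and 6, 6 and 0 in the interactions from NSC to ENB, ENB to LNB and LNB to neurons. With DESeq2 they became 29 from ENB to LNB in total mRNA, 7 from ENB to LNB and 4 from LNB to neurons in bound mRNA, 5 for ENB against its control, 6 between the controls, and 2, 6 and 8 in the 3 interactions. Without a filter on low counts they became 9 from ENB to LNB and 8 from LNB to neurons in bound mRNA, 8 for ENB and 9 for LNB against their controls, 7 between the controls and 0 in the interaction from NSC to ENB. With expected counts they became 10 from NSC to ENB in bound mRNA and 0 in its interaction. With RLE factors they became 2 for LNB against its control and 1 in the interaction from LNB to neurons. With the second index as a covariate they became 2 from ENB to LNB in total mRNA, 19 for NSC against its control and 0 in the interaction from NSC to ENB. The cause of these shifts was not tested.

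With the replicate number as a block, counts became 5 from ENB to LNB in total mRNA and 0, 0 and 1 in the 3 interactions, and they stayed within 1.5 times of the reported counts in all other comparisons. The numbers pair samples only in bound ENB and LNB, and in other comparisons the samples share only a number. With the animal tag as a block and only ENB and LNB fitted, the counts were 0 in total mRNA, 6 in bound mRNA and 0 in the interaction. Libraries without a shared animal drop out of these comparisons, which therefore rest on few libraries.

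Leaving out each library in turn gave 1 to 2 calls from NSC to ENB, 0 to 23 from ENB to LNB, 8 to 17 from LNB to neurons and 19 to 28 between NSC and LNB in total mRNA. In bound mRNA it gave 3 to 12 from NSC to ENB, 3 to 4 from ENB to LNB and 0 to 4 from LNB to neurons. Against the controls it gave 20 to 30 for NSC, 0 to 3 for ENB, 1 to 4 for LNB and 3 to 9 for neurons, with 3 between the controls each time. The interactions gave 0 to 1, 0 to 8 and 1 to 6. Where a stage was left with 1 library, that library was assumed to vary like the others. Counts near 0 limit Orc1, Mcm10, Cdc6 and Tk1 in LNB and neurons.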
